A study of Homo sapiens with 18 samples.

Results

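The clustered protocadherin genes lie on chromosome 5 as 3 neighbouring families, PCDHA, PCDHB and PCDHG. All ChIP-seq peaks overlapping a 735 kb window around them, chr5:140160001-140895000 in hg19, by at least 1 bp were taken as members. There were 212 such peaks among 501863 in the 18 deposited lists. They comprised 107 of 193288 H3K9me3 peaks, 49 of 100799 H3K4me3 peaks and 56 of 207776 H3K27ac peaks.

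The libraries came from NB4, a human acute promyelocytic leukemia cell line that carries the PML/RARα fusion. One set of cultures was left untreated, and the other received the hydroxypyrone maltonis, a synthetic derivative of maltol, at 10 µM for 24 h. Each of the 3 histone marks was profiled in 3 untreated and 3 maltonis libraries, described by the study as biological triplicates. NB4 is a single line in culture, so the comparison describes this line under a single dose and time.

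The clustered protocadherins are cell adhesion molecules of the cadherin superfamily, known above all from neurons, where each cell uses only a few of the promoters. In PCDHA and PCDHG, many variable first exons, each with its own promoter, are spliced to a shared set of constant exons, whereas the PCDHB genes are single-exon genes. Many of these promoters hold a conserved sequence element with the core CGCT, and CTCF and cohesin are known to join them to distant enhancers. H3K9me3 is a mark of heterochromatin, H3K4me3 of active or poised promoters, and H3K27ac of active promoters and enhancers, and the clusters are a known target of H3K9me3 deposited through SETDB1.

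RefSeq (GRCh38.p14) lists 53 genes of the 3 families by the symbols used here, 15 of PCDHA, 16 of PCDHB and 22 of PCDHG, and promoter sequences were matched for 47 of them in 52 entries of 300 bases. The letters CGCT were searched on both strands of each promoter, and on the gene's own strand they occurred in 12 of 13 PCDHA, 14 of 14 PCDHB and 25 of 25 PCDHG entries. The same letters occurred on that strand in 54.3% of all 35116 promoter entries, and on either strand in 70.0%. PCDHA9 was the entry without a match, which says only that these letters are not in that stretch. The following 60-base stretches, from the plus strand of chromosome 5, are examples of the bases around CGCT in each family. For each family they are the first, the middle and the last eligible gene in genomic order, with the matched letters in capitals. Eligible genes, C-type genes aside, had a single promoter entry with a single match on the gene's own strand. There were 9 in PCDHA, 9 in PCDHB and 12 in PCDHG, and likeness over a whole family was not measured. Matches on the other strand were not considered in this choice.
PCDHA1: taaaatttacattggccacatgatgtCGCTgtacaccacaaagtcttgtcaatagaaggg
PCDHA6: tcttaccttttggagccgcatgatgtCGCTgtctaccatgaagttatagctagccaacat
PCDHA12: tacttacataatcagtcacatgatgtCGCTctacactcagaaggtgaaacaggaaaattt
PCDHB5: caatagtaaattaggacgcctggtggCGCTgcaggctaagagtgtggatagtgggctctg
PCDHB9: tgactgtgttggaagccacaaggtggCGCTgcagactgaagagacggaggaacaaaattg
PCDHB15: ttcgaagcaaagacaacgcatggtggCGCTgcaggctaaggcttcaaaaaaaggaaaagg
PCDHGA1: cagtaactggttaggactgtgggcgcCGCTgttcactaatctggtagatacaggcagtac
PCDHGA7: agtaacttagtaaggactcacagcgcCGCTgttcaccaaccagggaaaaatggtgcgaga
PCDHGA11: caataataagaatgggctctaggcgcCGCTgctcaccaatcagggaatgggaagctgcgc

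In these stretches CGCT began between 11 bases (PCDHB5) and 95 bases (PCDHGA1) before the annotated start. The PCDHB and variable PCDHA promoters held 3 to 12 CpG dinucleotides each, below the median of 14 over all promoter entries. The C-type genes PCDHAC1, PCDHAC2, PCDHGC3 and PCDHGC4 held 15 to 27, and the variable PCDHG entries spanned both ranges, from 2 to 25. TAF7, a subunit of the general transcription factor TFIID whose gene lies with SLC25A2 between PCDHB and PCDHG, had 27. The sequences are in GRCh38.p14 and the peaks in hg19, so no peak was placed on a particular promoter, and a match is a description and not evidence of binding.

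The window was divided in genomic order into a PCDHA interval of 240 kb, a PCDHB interval of 260 kb, a stretch of 45 kb between PCDHB and PCDHG, and a PCDHG interval of 190 kb. The bounds were set from general knowledge of the locus, not from an hg19 annotation. A peak in an interval may therefore lie outside the genes that name it. Positions below are also given as the distance from the start of the window. Peaks of 1 mark were merged over its 6 libraries where they overlapped by at least 1 bp. Reads in H3K9me3 and H3K27ac lists are those the authors counted inside each called island, which is a multiple of 200 bp. The H3K4me3 lists hold fold enrichment and no reads.

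Reads inside all islands of an H3K9me3 list ranged from 3137349 to 3366296 in the untreated and from 2595814 to 3219805 in the maltonis libraries. For H3K27ac they ranged from 19449049 to 20340061 in the untreated and from 17974940 to 20773316 in the maltonis libraries. Among 4139 windows of the same length along the genome, 6.57% to 10.1% had more H3K9me3 covered length than the protocadherin window, depending on the library. The corresponding shares were 27.9% to 37.4% for H3K4me3 and 43.9% to 46.6% for H3K27ac. The protocadherin window therefore ranked high in the genome for H3K9me3 and nearer the middle for the other marks. Windows were counted from the start of each chromosome to its last peak, also where they held no peak. The ranks are thus not among marked windows alone.

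**Figure D1:**
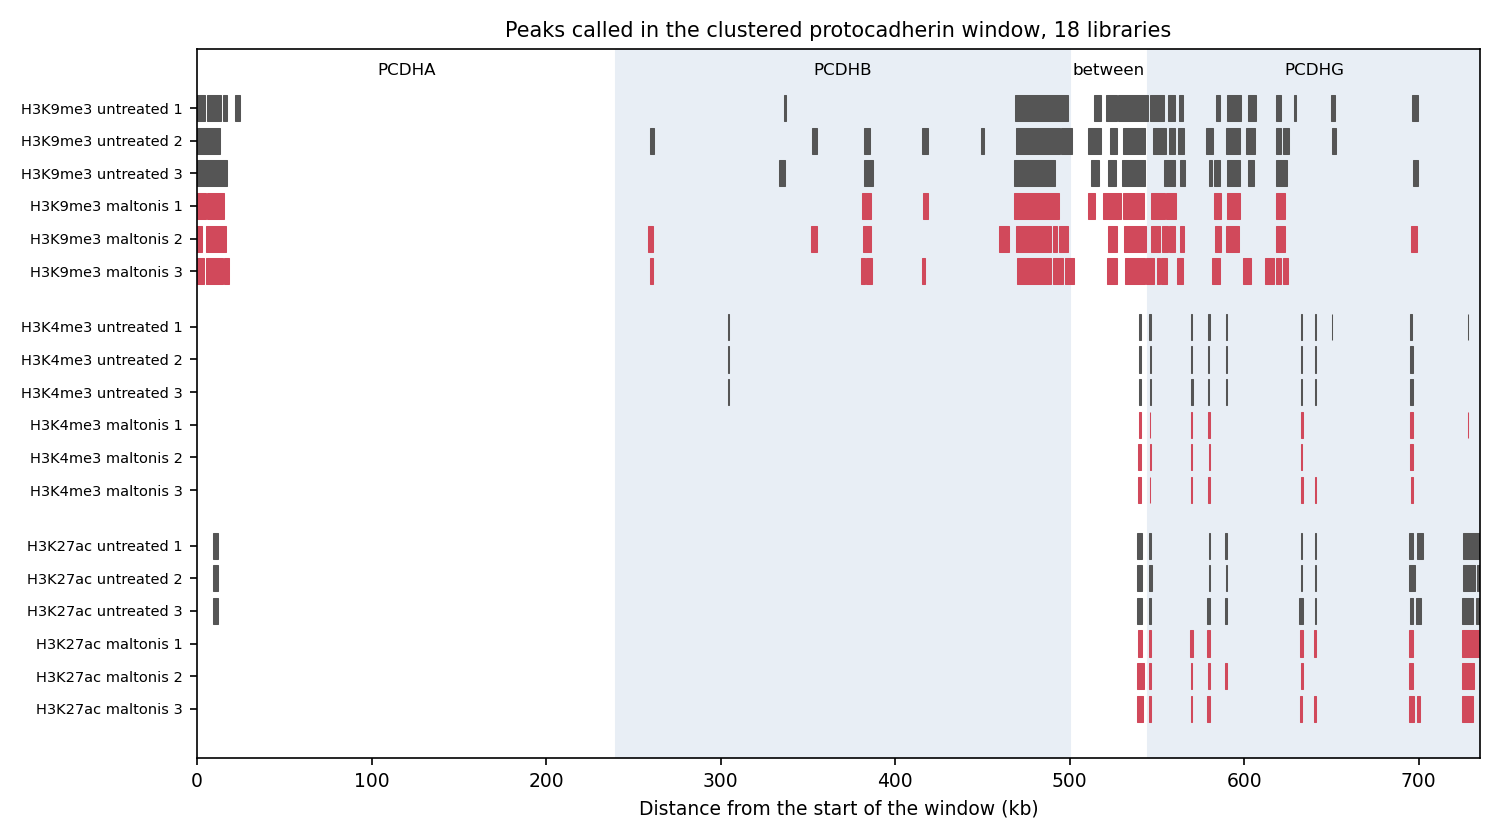
Peaks of the 18 libraries across the 735 kb window, with the distance from the start of the window in kb on the horizontal axis, 1 row per library and the intervals shaded in turn. H3K9me3 formed blocks at the start of the window and from 468.2 kb onward, and the first 304.2 kb held no H3K4me3 peak.

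H3K9me3 covered 114.8, 122.8 and 106.2 kb of the window in untreated libraries 1, 2 and 3, and 104.8, 109.4 and 106.8 kb in maltonis libraries 1, 2 and 3. The means were 115 ± 8.30 kb and 107 ± 2.31 kb (SD, n = 3 each), or 15.6% and 14.6% of the window. The conditions overlapped, since the lowest untreated library lay below 2 of the maltonis libraries (two-sided exact permutation p = 0.3, the smallest possible being 0.1). Over all windows of the same length the means were 39.3, 40.8 and 41.4 kb in the untreated libraries. They were 41.2, 40.2 and 34.2 kb in the maltonis libraries, again with overlap. The difference was -4.91% over all windows and -6.63% in the protocadherin window, and whether these differ was not tested. Reads in the window were 694, 694 and 626 per 1000000 reads in peaks in the untreated libraries, and 678, 715 and 740 in the maltonis libraries. These also overlapped (671 ± 39.4 against 711 ± 31.2, SD, n = 3 each, exact permutation p = 0.3). Scaling to the reads of the same list removes any change shared by all islands. The global H3K9me3 decrease that the study reported by western blot and mass spectrometry would not be visible in these values. The same holds for the fold changes of read counts given below. Reads per covered kb, divided by the same ratio over the whole list, were 0.983 ± 0.0278 and 1.06 ± 0.0668 (SD, n = 3 each, exact permutation p = 0.3), so that H3K9me3 in the window was about as dense as in an average island.

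The mark was unevenly spread. No library had an island in 75.1% of the window, and all 6 libraries shared 6.56% of it, or 48.2 kb. The longest stretch without a peak of any of the 3 marks in any library ran for 234 kb (chr5:140184401-140418400), from 24.4 to 258.4 kb, through most of the PCDHA interval and into PCDHB. In PCDHA, H3K9me3 was confined in every library to the first 24.4 kb.

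**Figure D2:**
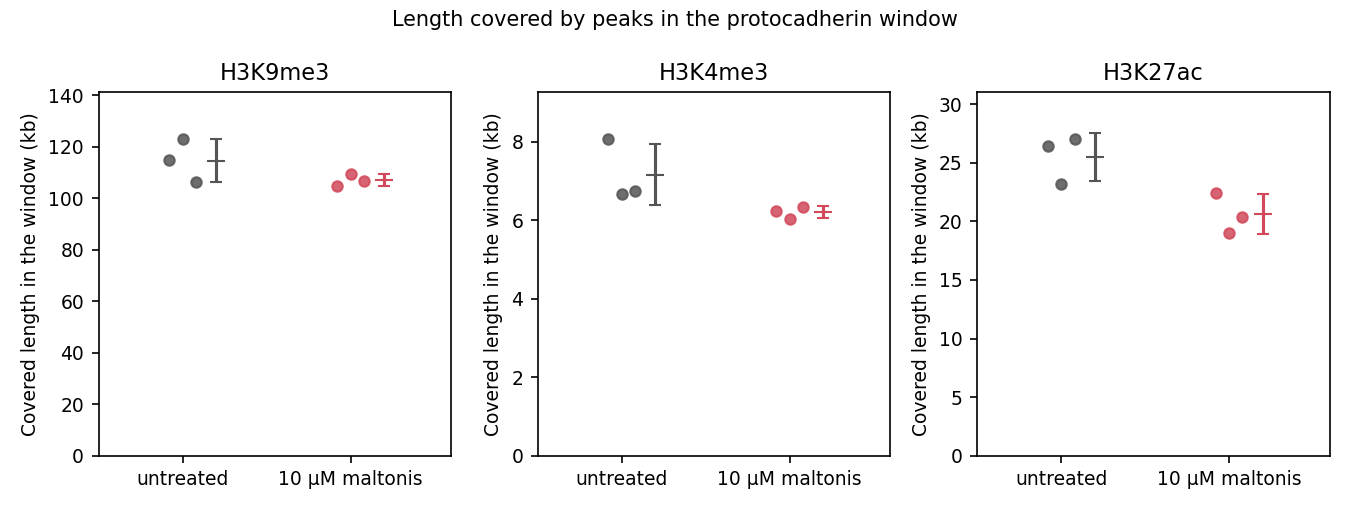
Covered length in the window in kb for each mark, as 1 point per library with the mean and SD (n = 3) beside the points. H3K9me3 overlapped between conditions, whereas the 3 maltonis libraries lay below the 3 untreated ones for H3K4me3 and H3K27ac.

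By interval, H3K9me3 covered 17.8, 13.2 and 17.2 kb of PCDHA in the untreated libraries and 14.8, 14.4 and 16.8 kb in the maltonis libraries. PCDHB had 31.8, 43.8 and 32.0 kb, against 33.6, 44.2 and 36.6 kb. The stretch between PCDHB and PCDHG was the most densely covered, with 26.6, 25.4 and 22.4 kb against 26.4, 17.8 and 20.8 kb, or 55.1% and 48.1% of its length on average. In these 3 intervals the conditions overlapped, and the exact permutation p-values were 0.8, 0.5 and 0.3 (n = 3 each). Single libraries weighed on these values. Between PCDHB and PCDHG the mean difference of -3.13 kb became -5.50 kb, with the conditions apart, without maltonis replicate 1, and -1.20 kb without maltonis replicate 2. Without untreated replicate 2 the conditions were apart in PCDHA, at -2.17 kb, and in PCDHB, at 6.23 kb.

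PCDHG was the interval where the conditions stood apart. The untreated libraries had 38.6, 40.4 and 34.6 kb of H3K9me3 and the maltonis libraries 30.0, 33.0 and 32.6 kb, so each maltonis library was below each untreated one. The means were 37.9 ± 2.97 kb and 31.9 ± 1.63 kb (SD, n = 3 each). These lengths were compared without adjusting for the reads inside all islands of each list, which reached lower values under maltonis. The exact permutation p of 0.1 is the smallest this design allows, and it became 0.4 after Benjamini-Hochberg adjustment over the 4 intervals. Reads in PCDHG per 1000000 reads in peaks overlapped, at 180 ± 15 and 168 ± 8.36 (SD, n = 3 each). The conditions also overlapped in covered length when islands within 1000 bp were merged (difference of -4.87 kb), with equal numbers of islands from each list (-2.73 kb), with the strongest 75% of islands (-6.87 kb) and with a common lowest score (-3.20 kb).

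**Figure D3:**
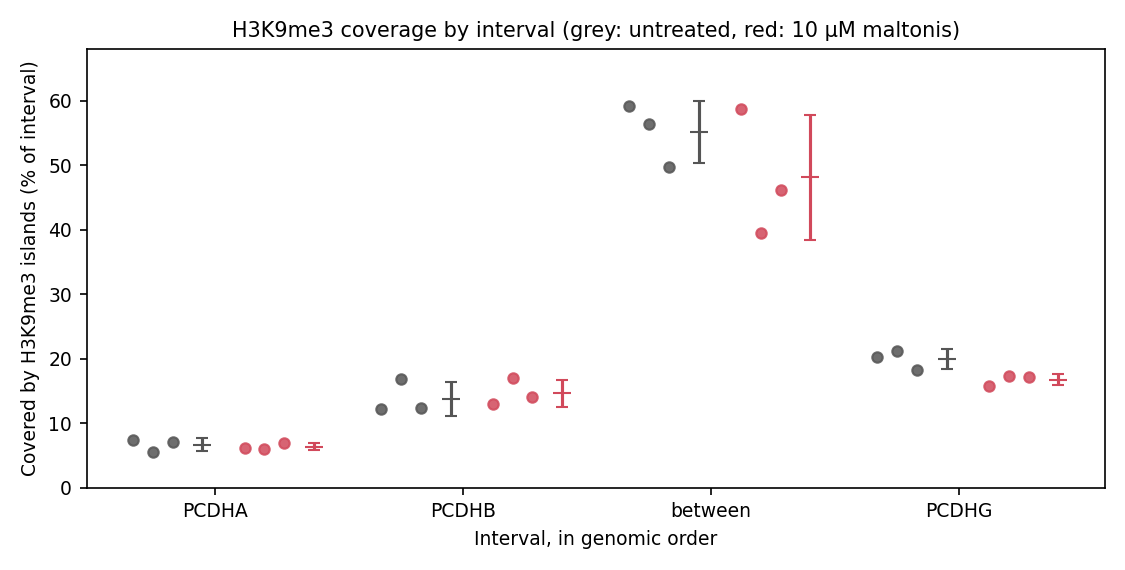
Share of each interval covered by H3K9me3 islands, in percent, as 1 point per library with the mean and SD (n = 3), in genomic order. The stretch between PCDHB and PCDHG had the highest share in every library, and PCDHG was the interval without overlap between conditions.

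The H3K9me3 islands merged into 21 regions, of which 5 were called in all 6 libraries and 5 in a single library. None was called in the 3 libraries of a condition and in none of the other. Over the genome, 2.32% of 46996 merged regions were called in all untreated and no maltonis libraries, and 0.781% in the opposite pattern.

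The first shared region, chr5:140122401-140178600, crosses the start of the window, from 37.6 kb outside it to 18.6 kb inside. It held 973, 884 and 998 reads in the untreated libraries and 1020, 1024 and 953 in the maltonis libraries. Per 1000000 reads in peaks these were 310, 268 and 296 against 317, 327 and 367, so the 3 maltonis libraries were the higher ones. By score, its strongest island stood at percentile 96.9 or higher of the list in each library.

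The second, chr5:140628201-140662600, lies at the right end of the PCDHB interval, 468.2 to 502.6 kb from the start. Its reads were 555, 622 and 527 in the untreated libraries and 594, 607 and 563 in the maltonis libraries. The islands covered 30.4, 31.8 and 23.4 kb against 25.6, 28.4 and 30.4 kb. Both measures overlapped between conditions, and this region holds all of the 20.8 kb of the PCDHB interval that every library shared. Whether the region lies on PCDHB genes or beyond them was not determined. Elsewhere in PCDHB there were 7 smaller regions of 2.0 to 6.8 kb, each missing from at least 1 library, which left most of that interval without H3K9me3.

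The third, chr5:140679001-140721000, spans the end of the stretch between PCDHB and PCDHG and the start of PCDHG. It held 726, 612 and 578 reads in the untreated libraries and 763, 692 and 565 in the maltonis libraries. The highest and the lowest of these unscaled counts were both from maltonis libraries. Scaled to reads in peaks as above, they were 231, 185 and 172 in the untreated and 237, 221 and 218 in the maltonis libraries. The lowest scaled value was thus from an untreated library, and the conditions overlapped with and without scaling.

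In PCDHG itself the shared regions were small. The region at chr5:140738201-140746800 had 42 to 84 reads in the untreated and 65 to 75 in the maltonis libraries, and that at chr5:140778201-140785600 had 62 to 129 and 91 to 108. Every library shared only 2.6 kb of the 65.4 kb of PCDHG in which any library had an island, compared with 20.8 of 60.2 kb in PCDHB and 10.2 of 21.4 kb in PCDHA. Among the regions in PCDHG that not every library shared, chr5:140749601-140758000 was the widest. Its islands were 7.6 to 8.0 kb in the untreated libraries and 7.4 and 7.0 kb in maltonis libraries 1 and 2. Maltonis library 3 had none there, and its list held the fewest reads inside H3K9me3 islands, 2595814.

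Read counts were tested with edgeR's quasi-likelihood test in regions called in all 6 libraries, with an FDR of at most 0.01 (Benjamini-Hochberg, over all such regions of the genome) and an absolute log2 fold change of at least 0.58. For H3K9me3, 0 of the 5 window regions passed, against 0.267% of 14226 over the genome, and 0.415% of these passed the FDR criterion alone. At an unadjusted p under 0.05 there was 1 of the 5 (14.1% over the genome), and DESeq2 called 0 (1.3% over the genome). The log2 fold changes were 0.19 ± 0.073 (SE), 0.17 ± 0.092, 0.18 ± 0.10, 0.31 ± 0.28 and 0.04 ± 0.28 in genomic order, with edgeR FDR values from 0.267 to 0.970. Reads outside islands are not in the lists, and only regions called in all 6 libraries were tested. A loss of signal that ended a call is therefore missed by this test.

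H3K4me3 was found in 11 merged regions, all narrow. PCDHA had none in any library, and PCDHB had 1, in untreated libraries only. The window held 11, 9 and 9 peaks in the untreated libraries and 7, 6 and 7 in the maltonis libraries. The covered lengths were 8.06, 6.69 and 6.76 kb against 6.23, 6.04 and 6.35 kb. Every maltonis library was below every untreated library in both measures (7.17 ± 0.776 kb and 6.21 ± 0.152 kb, SD, n = 3 each, exact permutation p = 0.1, the smallest possible). Over all windows of the same length the mean went the other way, from 5.85 ± 0.0545 kb to 6.26 ± 0.00507 kb (SD, n = 3 each), and this difference from the protocadherin window was not tested. Without untreated replicate 1 the difference of -0.962 kb became -0.514 kb, and it turned to 0.267 kb, with overlap, when only peaks with a −log10 q of at least 10 were kept.

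By −log10 q within its own list, the median window peak stood at percentile 40.0 ± 1.97 in the untreated and 30.8 ± 2.29 in the maltonis libraries (SD, n = 3 each). All maltonis libraries ranked below all untreated ones (exact permutation p = 0.1).

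The strongest H3K4me3 regions were at 539.4 and 695.1 kb. The region chr5:140699402-140701183, in the stretch between PCDHB and PCDHG where TAF7 and SLC25A2 lie, had a fold enrichment of 5.33, 5.34 and 5.28 in the untreated libraries and 4.92, 4.78 and 4.85 in the maltonis libraries. Its peaks were 1513, 1401 and 1403 bp wide against 1637, 1758 and 1703 bp. Under maltonis it was thus lower in fold and wider in every library, and by −log10 q it ranked at percentiles 69.3 to 70.3 of the untreated lists and 75.8 to 82.4 of the maltonis lists. This region overlapped H3K9me3 islands in all 6 H3K9me3 libraries and H3K27ac islands in all 6 H3K27ac libraries. Whether the marks occur on the same chromatin molecules is not measured by these libraries.

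The region chr5:140855147-140856807, near the right end of PCDHG, had a fold enrichment of 5.51, 5.42 and 4.74 in the untreated libraries and 4.87, 4.96 and 4.56 in the maltonis libraries, which overlapped. Its peaks were 1243, 1220 and 1276 bp wide in the untreated libraries and 1451, 1585 and 1323 bp in the maltonis libraries, with no overlap.

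The remaining shared regions, all in PCDHG, were weaker. The region at 545.7 kb (chr5:140705750-140706606) had a fold of 3.78, 4.08 and 3.68 against 3.15, 3.50 and 2.79, and that at 579.5 kb (chr5:140739503-140740542) had 4.26, 5.00 and 5.40 against 3.69, 4.24 and 3.95. At 632.5 kb (chr5:140792504-140793558) the fold was 4.38, 4.60 and 4.68 against 3.20, 4.26 and 3.74. The conditions did not overlap at these 3 positions, whereas they did at 569.6 kb (chr5:140729593-140730601), where the fold was 3.72 ± 0.566 and 3.14 ± 0.295 (SD, n = 3 each).

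Of the 6 regions called in every library, 4 had a lower fold and 2 a greater width in each maltonis library than in each untreated one. Over the genome, 52.8% of 12470 such regions had a lower fold in this sense and 54.8% were wider. The count of lower folds was thus near the background, and nothing particular to the window is read from it.

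**Figure D4:**
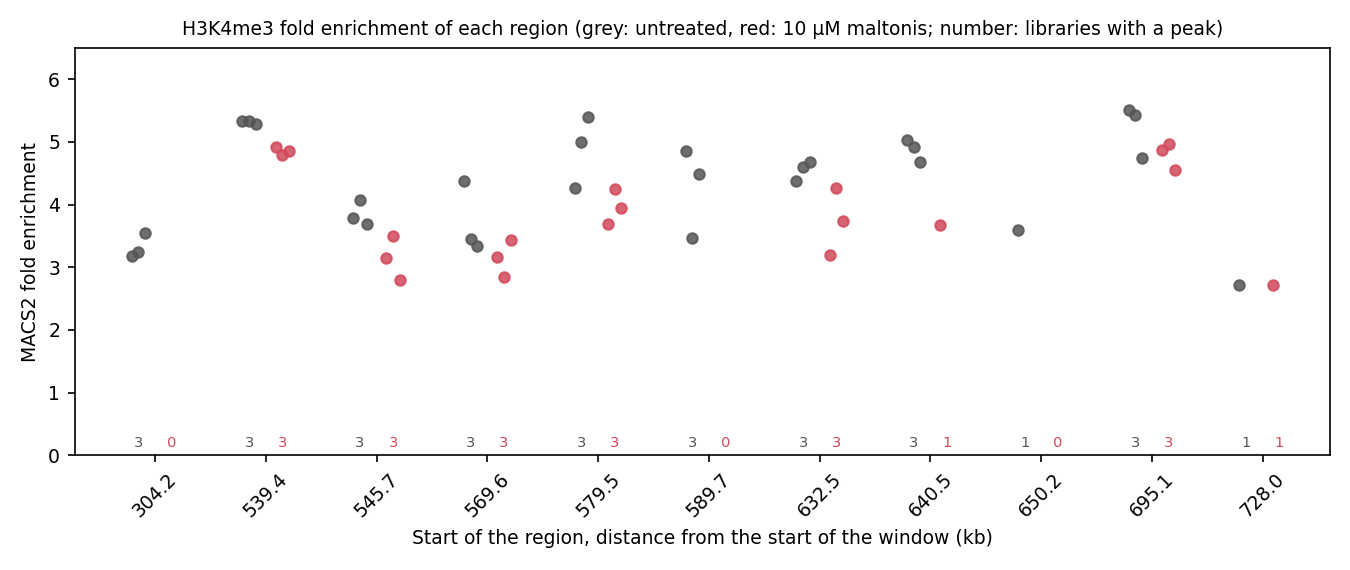
MACS2 fold enrichment of the 11 H3K4me3 regions in genomic order, as 1 point per library with a peak, with the start of each region in kb from the start of the window. The numbers at the bottom count the libraries with a peak, which is 3 untreated and 0 maltonis at 304.2 and 589.7 kb.

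There were 2 H3K4me3 regions called in all untreated and no maltonis libraries, and 0 in the opposite pattern, against 1.66% and 0.836% of 27037 merged regions over the genome. The first, chr5:140464203-140464633, was the one H3K4me3 region in PCDHB and overlapped no peak of the other marks. Its fold enrichment was 3.18, 3.25 and 3.55, with widths of 344, 337 and 357 bp. The other, chr5:140749722-140750292 in PCDHG, had a fold of 4.86, 3.46 and 4.48.

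These peaks were weak within their lists, at percentiles 24.6 to 30.6 and 28.3 to 40.0 by −log10 q. With the strongest 75% of peaks of each list, 1 region of this pattern was left. A further PCDHG region, chr5:140800474-140801195, was called in the 3 untreated libraries with a fold of 5.04, 4.91 and 4.68 and in maltonis library 3 with 3.68. An absent peak means that the caller's threshold was not reached, and with no reads in these lists the signal under it is unknown.

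H3K27ac covered 26.4, 23.2 and 27 kb of the window in the untreated libraries and 22.4, 19.0 and 20.4 kb in the maltonis libraries, in 10, 10 and 11 peaks against 8, 8 and 9. The conditions did not overlap (25.5 ± 2.04 kb and 20.6 ± 1.71 kb, SD, n = 3 each, exact permutation p = 0.1, the smallest possible). Reads per 1000000 reads in peaks were 91.6, 91.1 and 96.8 against 94.1, 93.8 and 99.4, which did overlap (p = 0.5, exact permutation). By mass spectrometry, the study reported higher global H3K27ac and H3K4me3 under maltonis. Because of the scaling, a global rise in H3K27ac would not be visible in these reads or in the fold changes below. The mean over all windows of the same length was 54.3 ± 1.51 kb in the untreated and 43.5 ± 1.70 kb in the maltonis libraries (SD, n = 3 each), a difference of -20.0%, compared with -19.3% in the protocadherin window. Relative to the density of the whole list, reads per covered kb in the window were 0.824 ± 0.0742 and 0.839 ± 0.0629 (SD, n = 3 each, exact permutation p = 0.8). With equal numbers of islands from each list the difference of -4.93 kb in covered length became -3.73 kb and the conditions overlapped, as they did with the strongest 75% of islands, at -2.80 kb.

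Of the 11 merged H3K27ac regions, 1 lay in PCDHA, 0 in PCDHB, 1 between PCDHB and PCDHG and the other 9 in PCDHG. Between the PCDHA region and the next, 526.2 kb held no H3K27ac in any library. H3K4me3 overlapped 9 of the 11 regions. All 6 regions called in every H3K27ac library were overlapped by H3K4me3, 5 of them in every H3K4me3 library and the one at the end of the window in 1 untreated and 1 maltonis library.

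The PCDHA region, chr5:140169201-140172200 and 9.2 to 12.2 kb from the start, was called in the untreated libraries only. Its reads were 120, 102 and 123, in islands of 2.8 kb each, and it lay under H3K9me3 islands of all 6 H3K9me3 libraries. It accounted for 2.8 kb of the 4.93 kb by which the mean covered length differed. Over the genome, 6.04% of 36947 merged H3K27ac regions were called in all untreated and no maltonis libraries.

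The opposite pattern, with a background of 1.65%, was seen once, at chr5:140728801-140730600 in PCDHG. Its reads in the maltonis libraries were 64, 45 and 68. The H3K4me3 region that overlaps it, at 569.6 kb, was called in all 6 H3K4me3 libraries. Both H3K27ac regions were weak, at percentiles 20.8 to 37.7 and 5.66 to 38.6 of their lists by score. With the strongest 75% of islands neither pattern occurred, and with equal numbers of islands there were 2 regions called in untreated libraries only and 0 in maltonis libraries only. Island lists give no reads where no island was called, so no fold was computed for these regions.

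In PCDHG, chr5:140749001-140750400 was called in the 3 untreated libraries with 77, 59 and 60 reads and in maltonis library 2 with 51. It overlapped the H3K4me3 region at 589.7 kb that was called in untreated libraries only. The region chr5:140800201-140801400 had 42, 54 and 52 reads in the untreated libraries, 45 and 68 in maltonis libraries 1 and 3, and no island in maltonis library 2.

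Among the 6 H3K27ac regions called in every library, none passed both criteria of edgeR's quasi-likelihood test, against 27.4% of 20018 over the genome. At an unadjusted p under 0.05 there were 3 of the 6 (70.5% over the genome), and DESeq2 called 0 with both criteria (29.1% over the genome). The FDR criterion alone was passed by 2 of the 6, against 56.2% over the genome.

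The first of these was chr5:140698401-140702800, which overlaps the H3K4me3 region at 539.4 kb. It held 415, 428 and 468 reads in the untreated libraries and 555, 647 and 618 in the maltonis libraries. Per 1000000 reads in peaks these were 21.3, 21.0 and 23.3 against 30.9, 31.1 and 32.1, so each maltonis library was above each untreated one. The fitted difference was 0.52 ± 0.068 on the log2 scale (SE), with an edgeR FDR of 0.000105, below the fold criterion of 0.58. With called length as an offset, which tests reads per covered length, it was 0.17 with an edgeR FDR of 0.564.

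The second was chr5:140884801-140907000, which crosses the end of the window and extends 12 kb past it. It held 1064, 1152 and 1084 reads in the untreated and 802, 924 and 742 in the maltonis libraries, and its islands covered 20.0, 20.2 and 19.8 kb against 15.8, 14 and 10.0 kb. Both measures were lower in every maltonis library. The fitted difference was -0.38 ± 0.061 on the log2 scale (SE), with an edgeR FDR of 0.000429, also short of the fold criterion. With called length as an offset its sign turned, to 0.083 (edgeR FDR = 0.657).

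The other 4 regions, in PCDHG, did not pass the FDR criterion. The region chr5:140738601-140740600 had 92, 87 and 88 reads against 115, 114 and 106, or 0.37 ± 0.16 (SE) on the log2 scale, with an edgeR FDR of 0.0615, and its sign turned, to -0.32 (edgeR FDR = 0.382), with called length as an offset. The counts at chr5:140705201-140707200 were 133, 139 and 127 against 119, 154 and 143, and those at chr5:140854201-140857800 were 253, 261 and 205 against 193, 237 and 226. Both overlapped between conditions. The smallest, chr5:140791401-140794000, had 58, 46 and 107 reads against 60, 73 and 52, the highest being untreated library 3.

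**Figure D5:**
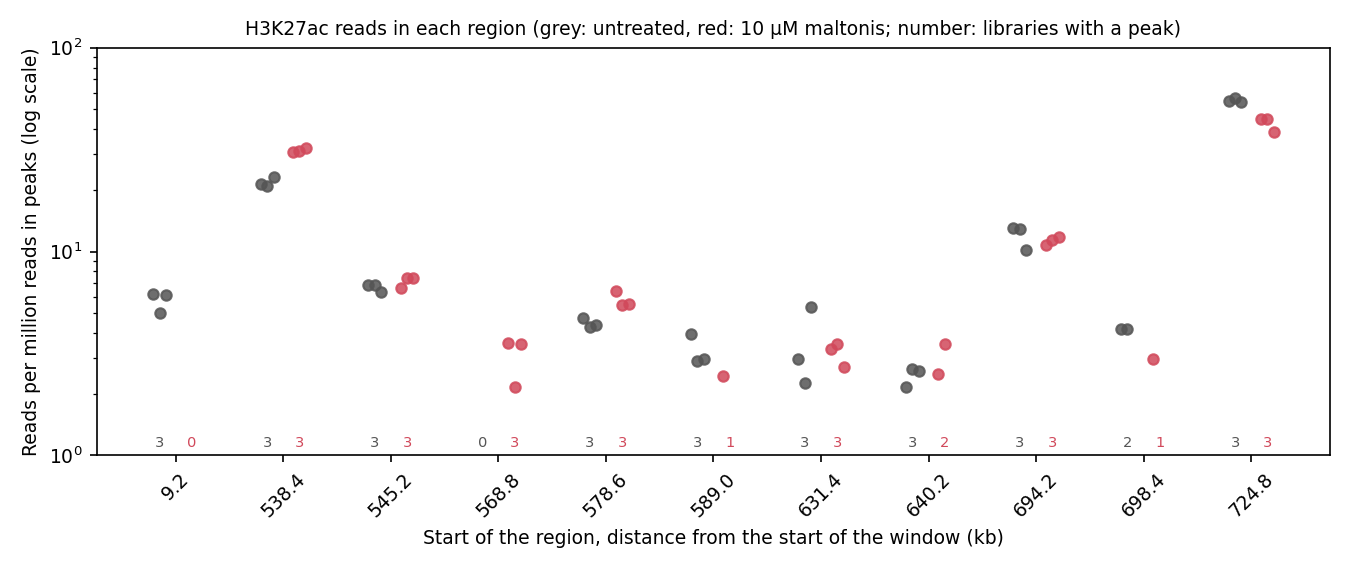
Reads of the 11 H3K27ac regions per 1000000 reads in peaks, on a log axis, as 1 point per library with an island, in genomic order by distance from the start of the window in kb. Among the regions called in every library, maltonis lay above untreated at 538.4 and 578.6 kb and below it at 724.8 kb. The numbers at the bottom count the libraries with an island.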

How the data were processed

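ChIP-seq libraries of NB4 cells, 3 per mark and condition (18 in all), were analysed as peak lists. Per the labels, the authors aligned reads to hg19 with BWA and used SAMtools, MACS2 and SICER. The study's methods name epic2 for H3K9me3 and H3K27ac. The deposited H3K4me3 lists give a fold enrichment ratio and −log10 p and q values, and the deposited epic2 lists give a read count and a score per island. Versions are not given in the sources used here. Peaks of chromosomes 1 to 22 and X were used, and island ends were treated as inclusive.

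Counts of islands crossing a window edge were shared out by length. Library values were compared by two-sided exact permutation tests over 20 assignments. Read counts in regions called in all 6 libraries were tested with edgeR 4.0.16 (TMM, R 4.3.3), with DESeq2 1.42.0 as an alternative. The SE given with an edgeR log2 fold change is its absolute value divided by the square root of the F statistic. Python 3.11.15 did the rest. Regions named were, for H3K9me3, those called in all 6 libraries, and for the other marks those called in at least 2, at most 8 per mark, with each region called in 1 condition only. The H3K9me3 region at chr5:140749601-140758000 was named after its values were seen. The members, intervals and tests were chosen with earlier results of these data known. No marker check of the cells was made, since peaks were not tied to genes. Replicates were described as biological. Intervals of counts were not computed, since peak reads are not independent molecules.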

Additional observations from a re-analysis of the deposited data

How the results depend on the processing

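Of 286 alternative values, 244 kept the direction and side of the threshold or overlap of the value reported or, for counts, stayed within 1.5 times of it. Differences are maltonis minus untreated. H3K4me3 covered length turned from -0.962 to 0.267 kb with a −log10 q of at least 10, and H3K9me3 reads in the window turned to -76.6 as listed, without scaling. With the strongest 75% of peaks, H3K27ac covered length differed by -2.80 kb, with overlap, H3K9me3 reads per 1000000 reads in peaks by 44.4, without overlap, 1 H3K4me3 region and 0 H3K27ac regions were called in untreated libraries only, and 0 H3K27ac regions in maltonis libraries only. With equal numbers of peaks, H3K27ac covered length differed by -3.73 kb, with overlap, and 2 and 0 H3K27ac regions were called in 1 condition only. Leaving out 1 library gave -11.8 to -3.50 kb of H3K9me3 covered length (apart without untreated replicate 3), 16.9 to 56.2 H3K9me3 reads per 1000000 reads in peaks (apart without maltonis replicate 1) and 0.0511 to 0.112 in relative density (apart without maltonis replicate 3). In PCDHA, H3K9me3 covered length was -2.17 to 0.133 kb, and 0.0667 kb with a common lowest score. In PCDHB it was -0.767 to 6.23 kb, and between PCDHB and PCDHG -5.50 to -1.20 kb. With called length as an offset, the log2 fold change turned to 0.083 at the H3K27ac region chr5:140884801-140907000, to -0.32 at chr5:140738601-140740600 and to -0.0045 at chr5:140705201-140707200. At the H3K27ac region chr5:140791401-140794000 it was -0.38 to 0.28 without 1 library, and at the H3K9me3 region chr5:140778201-140785600 -0.22 to 0.20, with -0.059 without maltonis replicate 3. Over the genome, edgeR's 38 H3K9me3 calls became 11 with the replicate block, 23 with the offset, 21 with regions within 1000 bp merged, 171 with DESeq2 and 1 to 12 without 1 library, and its 5477 H3K27ac calls became 1343 with the offset. The causes were not tested.

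The replicate numbers were not used as pairs in the main tests. Same-numbered libraries deviated with correlations of -0.0192 to 0.0297 in reads (H3K9me3, H3K27ac) and -0.0197 to -0.00109 in fold enrichment (H3K4me3). These values show no shared deviation, but they cannot tell whether the samples were paired. Used as a replicate block, the replicate numbers left the differences in covered length at -7.60, -0.962 and -4.93 kb for H3K9me3, H3K4me3 and H3K27ac. The exact sign-flip p-values were 0.5, 0.25 and 0.25, the smallest possible being 0.25.

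With 3 libraries per condition the exact permutation test of a single value cannot pass 0.05. Lists hold only called peaks, so a lower depth or a weaker enrichment and a lower level of the mark cannot be told apart where a peak is missing. The H3K4me3 lists give no reads. Uniquely mapped reads of 51 bp can miss stretches shared by near-identical PCDH genes.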
